A study of Mus musculus with 6 samples.

Results

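The genes described here are 10 regulators of the G1 phase of the cell cycle: the D cyclins Ccnd1, Ccnd2 and Ccnd3, the kinases Cdk4 and Cdk6, and the inhibitors Cdkn1a, Cdkn1b, Cdkn1c, Cdkn2c and Cdkn2d. They were taken by symbol from a table of 24421 gene rows. All 10 had a row and passed the filter on low counts, which 13548 genes passed. RNA was sequenced from LK cells, bone marrow cells of C57BL/6 mice that lack lineage markers and carry the receptor c-Kit, a gate that holds stem cells and myeloid, erythroid and megakaryocyte progenitors. Wild type mice gave 3 libraries, and littermates that carry mutant ASXL1 as a knock-in allele (ASXL1-MT-KI) gave 3, all at 8 to 12 weeks of age. The ASXL1 protein regulates chromatin, and its gene is often mutated in myeloid neoplasms. The labels give neither the locus of the knock-in, nor a promoter or Cre line, nor whether each library was 1 animal. Experiments are described by the submitters as biologically independent, and the p-values measure the spread between these libraries.

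D cyclins are made in response to growth factors and bind CDK4 or CDK6, and the active kinase phosphorylates the retinoblastoma protein, which frees E2F factors to switch on the genes of S phase. INK4 inhibitors, among them the products of Cdkn2c (p18) and Cdkn2d (p19), bind CDK4 and CDK6 and keep D cyclins from activating them. CIP/KIP inhibitors, the products of Cdkn1a (p21), Cdkn1b (p27) and Cdkn1c (p57), bind whole cyclin and kinase complexes and act most strongly on CDK2. In blood, D cyclins and CDK6 drive the expansion of progenitors, and p57 is known for keeping stem cells out of cycle.

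Libraries held 40462168 to 47579480 counts. In CPM, the counts of a gene over the library total scaled by the TMM method to a common size, Asxl1 ran from 165 to 176 in the wild type libraries and from 310.2 to 327 in the ASXL1-MT-KI libraries. It rose 1.88-fold (adjusted p = 9.7e-06, edgeR). Counts per gene do not separate the knock-in allele from the endogenous gene. Transcripts that mark the gate were present in every library (Kit at 373 to 453 CPM), and Cd3e, Cd3g, Cd8a and Ms4a1, markers of mature lymphocytes, had 3 counts or fewer. Of the 4 gate markers, Myb rose (log2 fold change 0.20, adjusted p = 0.0174, edgeR) and Cd34 fell (-0.31, adjusted p = 0.00449, edgeR). Kit and Gata2 did not pass an adjusted p of 0.05, which 16% of all genes tested did. Libraries numbered 3 stood apart in both groups: Klf1, an erythroid factor, had its lowest value there, with 63.9, 83.2 and 42.9 CPM in the wild type series of 3 and 94.5, 99.3 and 69.4 CPM in the ASXL1-MT-KI series, each in order of number. In bulk RNA, fewer cells of a type and less RNA per cell cannot be told apart, which holds for every value below.

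Promoter windows from RefSeq (build GRCm38.p6), running from 250 bases before to 50 bases after a gene start, matched 7 of the 10 genes. Ccnd1, Ccnd2 and Cdkn1c have no window here. The 10 windows of the 7 genes were searched on both strands for E2F sites (TTTCCCGC, TTTGGCGC and TTTCGCGC), CRE (TGACGTCA), AP-1 (TGANTCA), the E-box (CACGTG), GLI (TGGGTGGTC), the GC box (GGGCGG) and the p53 site, 2 adjacent decamers with at most 1 mismatch. The windows shown are those of the 3 genes that fell, except the downstream start of Cdkn2c, and that of Cdk4, the most abundant of the 10, with matched letters in capitals, each 5′ to 3′ on the strand of the gene.
Cdkn1a upstream start, chr17:29090729-29091028, plus strand: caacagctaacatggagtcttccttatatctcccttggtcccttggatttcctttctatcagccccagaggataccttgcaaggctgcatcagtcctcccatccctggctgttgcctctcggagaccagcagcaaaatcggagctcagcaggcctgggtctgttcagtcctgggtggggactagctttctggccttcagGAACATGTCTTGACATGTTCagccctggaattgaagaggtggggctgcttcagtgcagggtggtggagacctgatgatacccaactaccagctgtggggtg
Cdkn1a downstream start, chr17:29093519-29093818, plus strand: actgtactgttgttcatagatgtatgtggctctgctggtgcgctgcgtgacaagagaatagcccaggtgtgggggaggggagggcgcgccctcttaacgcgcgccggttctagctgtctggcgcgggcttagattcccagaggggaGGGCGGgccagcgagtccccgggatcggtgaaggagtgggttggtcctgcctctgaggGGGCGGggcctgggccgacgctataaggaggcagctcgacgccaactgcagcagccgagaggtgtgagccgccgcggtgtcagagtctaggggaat
Cdkn2c upstream start, chr4:109666707-109667006, minus strand: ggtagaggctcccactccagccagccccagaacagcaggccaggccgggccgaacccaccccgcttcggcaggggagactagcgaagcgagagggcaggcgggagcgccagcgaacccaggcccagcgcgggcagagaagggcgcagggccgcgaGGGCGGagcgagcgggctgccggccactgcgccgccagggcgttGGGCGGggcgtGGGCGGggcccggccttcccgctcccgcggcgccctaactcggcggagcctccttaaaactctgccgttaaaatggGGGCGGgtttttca
Cdkn2d, chr9:21291160-21291459, minus strand: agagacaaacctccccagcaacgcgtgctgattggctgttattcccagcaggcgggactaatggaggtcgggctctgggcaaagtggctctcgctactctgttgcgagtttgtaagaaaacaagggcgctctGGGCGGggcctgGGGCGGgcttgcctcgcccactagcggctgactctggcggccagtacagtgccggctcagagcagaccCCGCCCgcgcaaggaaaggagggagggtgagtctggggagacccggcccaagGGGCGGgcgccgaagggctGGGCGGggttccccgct
Cdk4, chr10:127063285-127063584, plus strand: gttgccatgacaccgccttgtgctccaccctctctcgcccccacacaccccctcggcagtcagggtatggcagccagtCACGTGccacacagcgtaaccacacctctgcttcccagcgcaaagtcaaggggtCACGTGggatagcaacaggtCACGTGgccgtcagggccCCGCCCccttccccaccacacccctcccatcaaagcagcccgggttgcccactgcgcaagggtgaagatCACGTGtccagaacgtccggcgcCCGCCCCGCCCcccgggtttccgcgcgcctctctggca

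Both starts of Cdkn1a differ in their letters. The upstream window holds 2 CG pairs and a p53 match, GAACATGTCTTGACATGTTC, that begins 51 bases before the start. Such a match stood in 29 of 32851 windows of this length, or 0.0883%. The downstream window holds 23 CG pairs and 2 GC boxes. Cdkn2c has 33 CG pairs and 4 GC boxes at its upstream start, and Cdkn2d has 22 CG pairs and 5 GC boxes. GC boxes were also in both windows of Ccnd3 (2 each) and in that of Cdkn1b (1), and in 35.7% of all windows. Cdk4 carries 4 E-boxes, the site read by MYC and MAX, and 3 GC boxes, of which 1 pair overlaps. An E-box was also in the windows of Cdk6 and of the downstream start of Cdkn2c, and in 7.15% of all windows. The E2F, CRE, AP-1 and GLI letters were in none of the 10 windows, against shares of 0.253% (GLI) to 7.81% (AP-1) over all windows. These are matches of letters and not measured binding.

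Of the 10 genes, 5 passed an adjusted p under 0.05 (edgeR quasi-likelihood test, Benjamini-Hochberg adjustment over all tested genes), against 16% of all genes tested. Ccnd1 and Cdkn1c rose in ASXL1-MT-KI cells (8.29% of all genes rose). Cdkn1a, Cdkn2c and Cdkn2d fell (7.69% of all genes fell). Both kinases, Ccnd2, Ccnd3 and Cdkn1b did not pass. The 5 that passed were also the 5 whose groups did not overlap, which held for 35.2% of all genes (18% with the knock-in higher, 17.2% with it lower). The 2 rises were called in each alternative named here. DESeq2 called 17.6% of all genes (8.98% higher, 8.63% lower) and 4 falls among the 10, and the replicate block 30.5% (16.7% and 13.8%) and 5 falls. The number of falls stayed at 3 with limma-voom (16%, 8.3% and 7.66%) and with scaling to total counts (17.2%, 11.5% and 5.66%). In the fit of numbers 1 and 2 alone it was also 3 (17.8%, 9.61% and 8.21%), with Ccnd2 in place of Cdkn1a. Among the 10, the median log2 fold change was -0.15, beside 0.00 over all tested genes. The 10 were chosen with earlier results of these data known, so these counts describe them and are no independent evidence.

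**Figure D1:**
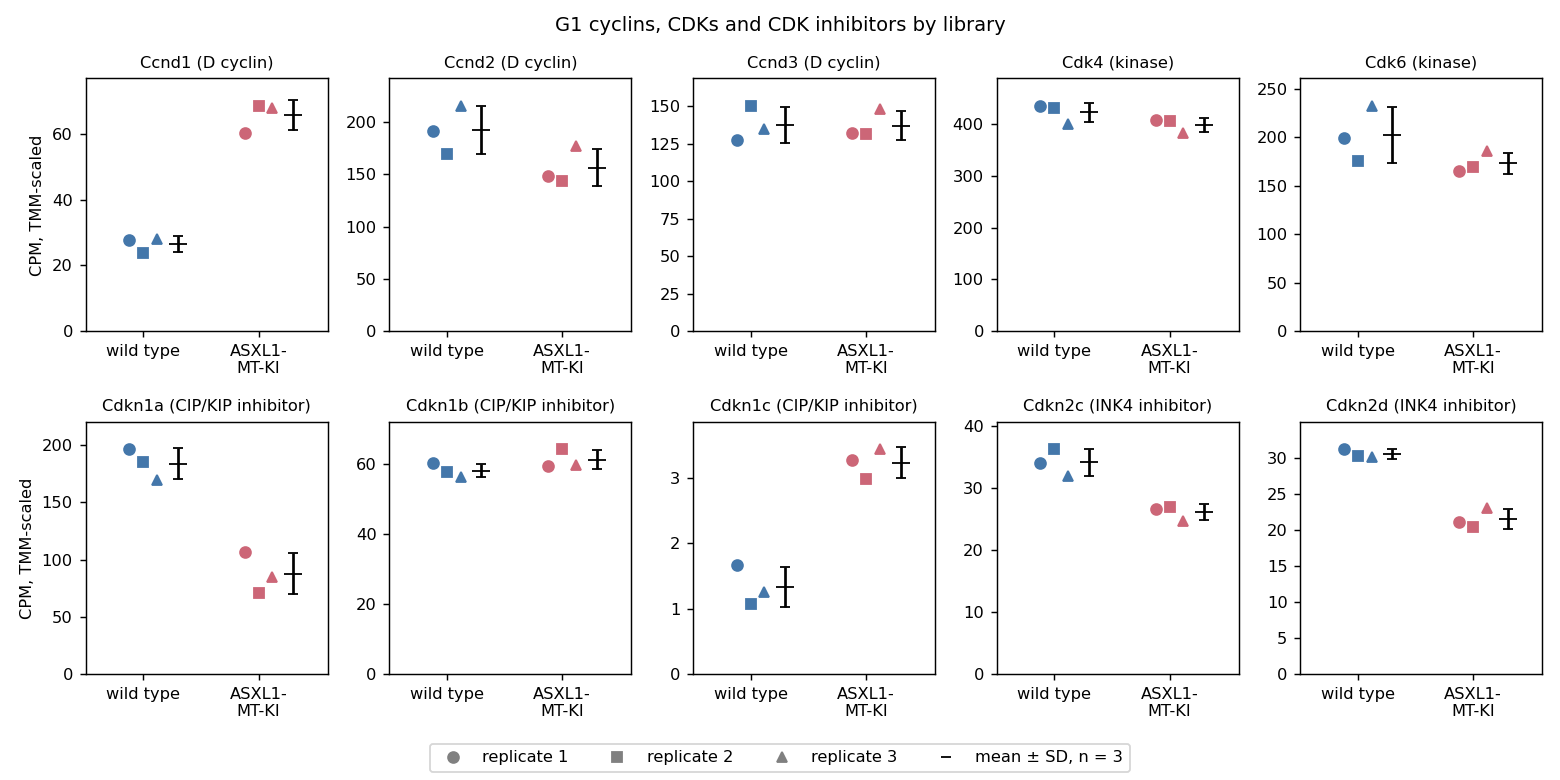
Expression of the 10 genes in each library, in TMM-scaled CPM on axes that start at 0; symbols mark replicates 1 to 3, and bars give the mean ± SD of 3 libraries. All ASXL1-MT-KI libraries lie above the wild type libraries for Ccnd1 and Cdkn1c and below them for Cdkn1a, Cdkn2c and Cdkn2d.

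Ccnd1 encodes cyclin D1 and lies on chromosome 7 from 144929931 to 144939925 (GRCm38). Listed by replicate number here and below, the wild type libraries held 27.8, 23.9 and 28.0 CPM, and the ASXL1-MT-KI libraries 60.4, 68.7 and 67.9 CPM. The groups were far apart, and the gap between them was wider than the range within either. The rise from 26.5 ± 2.33 to 65.6 ± 4.56 CPM (SD, n = 3 each) is a log2 fold change of 1.31 ± 0.080 (SE; adjusted p = 2.4e-05, edgeR), or 2.47-fold. Its 95% interval ran from 1.13 to 1.49. Oraov1, named LTO1 in GENCODE, is transcribed from the opposite strand and shares 1100 of the 4709 exon bases of Ccnd1. Oraov1 itself did not pass, with 13.3 ± 0.885 CPM in wild type against 15.8 ± 0.424 CPM (adjusted p = 0.0588, edgeR). Reads from the shared bases cannot be assigned to a strand here.

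Ccnd2, the gene of cyclin D2 on chromosome 6 (127125162 to 127152193), measured 191, 169.6 and 216 CPM in wild type and 149, 144 and 177 CPM in the knock-in libraries. Wild type library 2 lay below ASXL1-MT-KI library 3, and number 3 was the highest in both groups. The log2 fold change was -0.30 (95% interval -0.54 to -0.06; adjusted p = 0.0959, edgeR). Ccnd2 passed with the replicate number as a block (adjusted p = 5.9e-05, edgeR), in DESeq2 (0.0218), with numbers 1 and 2 alone (0.00869), and when either ASXL1-MT-KI replicate 3 (0.0228) or wild type replicate 2 (0.0409) was left out. Ccnd3, the gene of cyclin D3 on chromosome 17 (47505051 to 47599691), was at 127, 150.4 and 135 CPM in wild type against 132, 131 and 148 CPM with the knock-in. Its groups overlapped throughout. The 95% interval of its log2 fold change, -0.17 to 0.16, leaves room for a change of that size in either direction. Bysl, on the opposite strand, shares 361 exon bases with Ccnd3 and was at 69.8 ± 6.51 and 74.2 ± 5.65 CPM (adjusted p = 0.512, edgeR).

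The make-up of the D cyclin transcripts differed between the groups. Levels of different genes are compared as CPM per kilobase of exon, where exon length is the union of all annotated exons. Ccnd1 made up 14.5%, 12.6% and 13.4% of the summed D cyclin level in wild type libraries and 29.4%, 32.5% and 28.8% in ASXL1-MT-KI libraries. The share of Ccnd2 was 44.8% to 51.8% in wild type and 34.1% to 37.5% in ASXL1-MT-KI, and that of Ccnd3 34.7% to 42.6% and 33.3% to 34.4%. The summed level was 40.2 to 44.2 CPM per kilobase in wild type and 43.6 to 50.1 in ASXL1-MT-KI. The sums overlapped only by wild type 3 (44.2) and ASXL1-MT-KI 1 (43.6), while the shares of each cyclin did not overlap. For Ccnd3 the gap was narrow (34.7% against 34.4%), and its own level did not pass (log2 fold change -0.005, adjusted p = 0.976, edgeR). Shares of a sum are tied, so a rise of 1 cyclin lowers the shares of the others. With the length of the longest transcript in place of the exon union, Ccnd1 held 8.84% to 10.5% in wild type and 21.5% to 24.4% in ASXL1-MT-KI, and the shares of Ccnd3 overlapped. These shares were not tested.

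**Figure D2:**
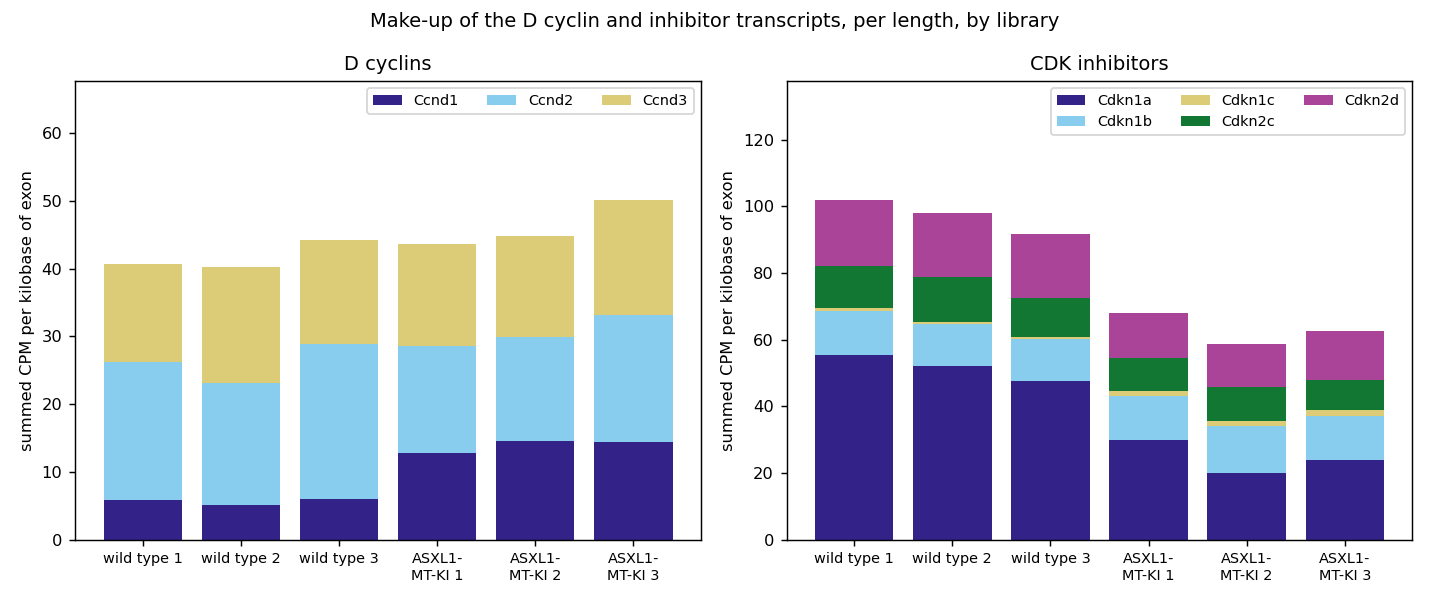
Stacked levels of the 3 D cyclins and of the 5 inhibitors in each library, in CPM per kilobase of exon. Ccnd1 takes 12.6% to 14.5% of the D cyclin level in wild type and 28.8% to 32.5% in ASXL1-MT-KI, and the summed inhibitor level lies between 91.7 and 101.9 in wild type and between 58.6 and 68.0 in ASXL1-MT-KI.

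Neither kinase gene passed the test. Cdk4, on chromosome 10 (127063534 to 127067920), measured 435, 431 and 400.2 CPM in wild type and 408, 405 and 382 CPM in the knock-in libraries. The groups overlapped by 1 library, wild type 3, and the log2 fold change was -0.08 (95% interval -0.20 to 0.03; adjusted p = 0.307, edgeR). Tspan31, a tetraspanin gene on the opposite strand, shares 641 of the 3249 exon bases of Cdk4 and was at 71.2 ± 3.61 and 73.0 ± 0.183 CPM. Cdk6, on chromosome 5 (3341485 to 3531008), was at 199, 175 and 233 CPM in wild type, against 165, 169 and 185 CPM with the knock-in. Wild type library 2 fell among the ASXL1-MT-KI libraries, and number 3 was the highest in both groups. The log2 fold change was -0.22 (95% interval -0.45 to 0.00; adjusted p = 0.166, edgeR). Cdk6 passed with the block (adjusted p = 0.00589, edgeR) and without wild type replicate 2 (0.0359). Of the summed level of both kinases per kilobase, Cdk4 made up 88.1% to 91.4% in wild type and 89.9% to 91.4% in ASXL1-MT-KI.

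Ccnd2 and Cdk6 shared a feature that is not genotype. Over both groups, number 3 libraries were higher than numbers 1 and 2 by 0.27 for Ccnd2 and 0.23 for Cdk6 on the log2 scale, a distance close to that between the genotypes. For the other 8 genes this difference lay between -0.13 and 0.10. In the same libraries the summed CPM of 7 erythroid markers was at its lowest within each group. The part of that shift in the values of Ccnd2 and Cdk6 was not tested.

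Cdkn1a encodes p21, the inhibitor best known as a target of p53, and lies on chromosome 17 (29090976 to 29100727). It measured 197, 185 and 169.5 CPM in wild type and 107, 71.2 and 85.2 CPM in the knock-in libraries. The lowest wild type library stood above the highest ASXL1-MT-KI library by more than the range within either group. Cdkn1a fell by 1.07 on the log2 scale (SE 0.14; adjusted p = 0.00437, edgeR), from 184 ± 13.6 to 87.7 ± 17.8 CPM (SD, n = 3 each). ASXL1-MT-KI libraries 1 and 2 differed from each other by more than any pair of wild type libraries. With numbers 1 and 2 only, the log2 fold change was -1.10 and did not pass (adjusted p = 0.117, edgeR). Trp53cor1, a non-coding neighbour transcribed upstream of Cdkn1a (11.8 kb away), did not pass, with 0.504 ± 0.135 CPM in wild type against 0.332 ± 0.077 CPM (adjusted p = 0.264, edgeR). Rab44, 13.4 kb away on the other side, was at 609.9 ± 87.1 and 583 ± 32.4 CPM (adjusted p = 0.695, edgeR).

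Cdkn1b encodes p27 and lies on chromosome 6 (134920401 to 134925513). It measured 60.2, 57.6 and 56.4 CPM in wild type and 59.4, 64.3 and 59.8 CPM in the knock-in libraries. The groups overlapped, and the log2 fold change was 0.07 (95% interval -0.05 to 0.20; adjusted p = 0.403, edgeR). Its nearest tested neighbour downstream, the non-coding 1190002F15Rik (3.58 kb away), held 13.2 ± 0.765 CPM in wild type against 12.9 ± 1.07 CPM (adjusted p = 0.833, edgeR).

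Cdkn1c encodes p57 and is an imprinted gene on distal chromosome 7 (143458339 to 143461050), expressed from the maternal copy. It had 77, 49 and 51 counts in wild type libraries and 157, 135 and 143 counts in ASXL1-MT-KI libraries, or 1.68, 1.07 and 1.26 CPM against 3.27, 2.99 and 3.45 CPM. Every ASXL1-MT-KI library was above every wild type library, at a level that stayed the lowest of the 10 genes. Cdkn1c rose 2.42-fold (log2 fold change 1.27 ± 0.19, adjusted p = 0.00256, edgeR), from 1.33 ± 0.312 to 3.23 ± 0.233 CPM. Gm44732, annotated on the opposite strand, shares 625 of the 2039 exon bases of Cdkn1c and has no value here, so its reads cannot be told apart from those of Cdkn1c there. Kcnq1ot1, the non-coding RNA that silences this imprinted domain on the paternal copy, lies 161.8 kb away and varied within the groups. Its values were 23.4, 22.2 and 51.2 CPM in wild type, and 17.2, 35.9 and 49.9 CPM in the knock-in (adjusted p = 0.939, edgeR). Slc22a18, the imprinted neighbour on the other side, did not pass either, with 1.76 ± 0.185 CPM in wild type against 2.32 ± 0.295 CPM (adjusted p = 0.153, edgeR).

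Stem cell markers moved in both directions. The summed level of 8 markers was 107 to 114 CPM in wild type and 92.6 to 95.5 CPM in ASXL1-MT-KI. Hlf and Mllt3 were the largest parts of this sum. Hlf was at 41.6 to 54.7 CPM in wild type and 28.6 to 35.6 CPM in ASXL1-MT-KI. Mllt3 was at 30.9 to 40.4 CPM in wild type and 30.2 to 42.4 CPM in ASXL1-MT-KI. Of the 8, Mecom, Procr, Hlf and Ly6a fell, Fgd5 rose, and Mllt3, Slamf1 and Ctnnal1 did not pass, with a median log2 fold change of -0.26. Over all genes tested, 16% were called, 8.29% higher and 7.69% lower. None of the 8 was at 0. The part of these markers in the change of Cdkn1c was not tested.

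Both INK4 genes fell, by less than Cdkn1a. Cdkn2c encodes p18, which limits the self-renewal of stem cells, and lies on chromosome 4 (109660876 to 109667189). It measured 34.1, 36.4 and 32.1 CPM in wild type and 26.8, 27.0 and 24.7 CPM in the knock-in libraries. The log2 fold change was -0.39 ± 0.071 (adjusted p = 0.00646, edgeR), a change of -23.5%, with the groups well apart. Cdkn2d encodes p19, the INK4 family member of chromosome 9 (21288410 to 21291407). It measured 31.2, 30.2 and 30.0 CPM in wild type and 21.05, 20.3 and 23.0 CPM with the knock-in, and the wild type libraries were the closest together of all 10 genes relative to their mean. The log2 fold change was -0.51 ± 0.069 (adjusted p = 0.00153, edgeR), a change of -29.6%. Faf1, the neighbour of Cdkn2c 9.40 kb away, also fell, from 85.0 ± 3.53 to 74.1 ± 2.34 CPM (adjusted p = 0.0316, edgeR), while Kri1, 0.441 kb from Cdkn2d, was at 51.7 ± 1.95 and 52.7 ± 1.997 CPM (adjusted p = 0.796, edgeR). The other INK4 genes were near 0: Cdkn2a had 2 counts in all, in wild type library 2, and Cdkn2b 3, 0 and 0 counts in wild type and 3, 3 and 4 in ASXL1-MT-KI.

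**Figure D3:**
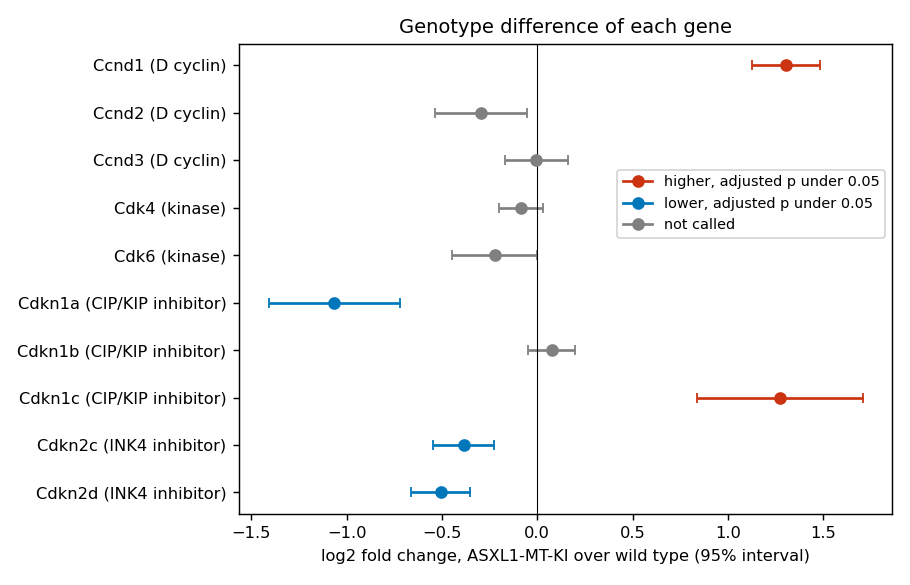
Log2 fold change of each gene, ASXL1-MT-KI over wild type, with its 95% interval from the edgeR fit; red and blue points passed an adjusted p of 0.05. The intervals of Ccnd1 (1.13 to 1.49) and Cdkn1c lie above 0 and those of Cdkn1a, Cdkn2c and Cdkn2d below it, and the interval of Ccnd2 misses 0 although its adjusted p is 0.0959.

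Ordered by level per kilobase in wild type, Cdk4 was highest (129.9 ± 5.86 CPM per kilobase), followed by Cdkn1a (51.7 ± 3.82), Ccnd2 (20.4 ± 2.46), Cdkn2d (19.4 ± 0.408), Ccnd3 (15.7 ± 1.345), Cdk6 (14.5 ± 2.06), Cdkn1b (12.8 ± 0.424), Cdkn2c (12.7 ± 0.804), Ccnd1 (5.64 ± 0.495) and Cdkn1c (0.654 ± 0.153). Neighbours from Ccnd2 to Cdkn2d and from Ccnd3 to Cdkn2c did not differ beyond their spread over libraries. In ASXL1-MT-KI, Ccnd1 had rank 5 (13.9 ± 0.969) in place of rank 9, and Cdkn2d rank 6 (13.6 ± 0.877) in place of rank 4. Ccnd1, Cdkn2d, Cdkn1b and Cdk6 there formed a chain of neighbours whose libraries overlapped. The 5 inhibitors summed to 91.7 to 101.9 CPM per kilobase in wild type and to 58.6 to 68.0 in ASXL1-MT-KI. Of this sum, Cdkn1a made up 52.0% to 54.3% in wild type and 34.2% to 44.1% in ASXL1-MT-KI, and Cdkn1b 12.9% to 13.5% and 19.2% to 24.1%. Cdkn1c made up at most 2.70% of it in any library.

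The genes whose pattern was most like that of a member were found by Pearson correlation of log2 CPM over the 6 libraries, for the 3 members with the lowest p. For Ccnd1 they were Mcm3ap (r = 0.998), 1700003E16Rik (0.998) and Sh3pxd2b (0.997). For Cdkn2d they were Kansl1 (0.999), Cecr6 (0.999) and Lbx1 (0.998), and for Cdkn1c Anks6 (0.998), Llgl2 (0.998) and 6720489N17Rik (0.997). All 6 points share the genotype difference, and 32, 22 and 10 genes had r over 0.99 with Ccnd1, Cdkn2d and Cdkn1c. The likeness is of shape and not of size: Sh3pxd2b rose from 24.3 ± 1.39 to 56.7 ± 2.89 CPM, while Mcm3ap, which did not pass, went from 106.5 ± 0.904 to 114.8 ± 0.900 CPM (adjusted p = 0.130, edgeR).

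For the 7 lists that follow, the shares over all genes tested are 16% called, 8.29% higher and 7.69% lower. In a list of cyclins E and A, CDK2, CDK activators and the other INK4 genes, 9 of 12 were tested. None rose in the edgeR test (3 at an unadjusted p under 0.05, and none in DESeq2 or limma-voom), and 1 fell, Mnat1, a subunit of the kinase that activates CDKs (32.9 ± 1.31 to 27.8 ± 1.11 CPM, log2 fold change -0.24, adjusted p = 0.0323, edgeR), so that 11.1% of the list was called against 16% of all genes. The median was 0.09. Cdk7, the kinase of that complex, was at 41.6 ± 2.33 and 46.5 ± 0.759 CPM, Ccne2, a cyclin of the step into S phase, at 13.3 ± 0.439 and 15.8 ± 2.18 CPM, and the phosphatase gene Cdc25a at 132 ± 0.682 and 143 ± 5.67 CPM, with no call. With the block, which called 30.5% of all genes, Ccne2, Cdk7 and Ccne1 (the last named after its values were seen) rose, and with total counts Cdc25a and Cdk7 did. The Mnat1 call was lost with total counts and on leaving out any library but wild type replicate 3.

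Among 19 genes of pocket proteins, E2F factors and the MuvB complex, 2 rose and 1 fell (15.8% called, against 16% of all genes), with a median of 0.03. E2f6, a repressor that works with Polycomb proteins, rose by 0.30 on the log2 scale (59.3 ± 3.91 to 73.0 ± 1.77 CPM, adjusted p = 0.00884, edgeR), and E2f7, a repressor of the later cycle, from 18.7 ± 1.38 to 22.9 ± 1.003 CPM. Lin54, the DNA-binding subunit of MuvB, fell from 48.5 ± 2.30 to 39.9 ± 1.61 CPM. The activator gene E2f2 was at 32.5 ± 0.858 and 28.3 ± 0.918 CPM (adjusted p = 0.0535, edgeR). With the block 3 rose and 3 fell (16.7% and 13.8% of all genes did), and DESeq2 called 2 falls. No rise was left when ASXL1-MT-KI replicate 2 was dropped, and 1 when ASXL1-MT-KI replicate 1 or 3 or wild type replicate 1 was. No fall was left when replicate 1 of either group was dropped.

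Of 30 S phase genes that E2F regulates, 1 rose and 2 fell (10% called, against 16% of all genes), and the median was 0.01. Cdc6, which loads the replicative helicase, rose by 0.25 on the log2 scale (88.7 ± 8.08 to 105.8 ± 5.59 CPM, adjusted p = 0.0420, edgeR). Dtl, the substrate receptor of a ubiquitin ligase that destroys p21 and the licensing factor CDT1, fell from 171 ± 5.48 to 144 ± 2.23 CPM (-0.24, adjusted p = 0.00736, edgeR), and the polymerase gene Pola1 from 205 ± 7.19 to 181 ± 4.14 CPM. Mcm3 was at 531 ± 14.5 and 491 ± 8.31 CPM (adjusted p = 0.110, edgeR). No gene of the list rose with numbers 1 and 2 only, or when any library but wild type replicate 2 was left out. When any library but wild type replicate 3 was dropped, and with total counts, 1 gene fell, and total counts gave 3 rises. With the block 3 rose and 3 fell (16.7% and 13.8% of all genes did).

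Of 26 G2 and M phase genes none passed in either direction (1 had an unadjusted p under 0.05, and DESeq2 and limma-voom called none). In direction, 23 of the 26 were higher in ASXL1-MT-KI, against 50.2% of all genes tested, and the median was 0.08. Cenpf, a kinetochore gene, was at 105.6 ± 14.3 and 122 ± 6.54 CPM (adjusted p = 0.156, edgeR), and the mitotic kinase genes Aurka and Plk1 at 61.8 ± 10.5 and 72.7 ± 6.14 CPM and at 80.9 ± 14.0 and 97.4 ± 12.9 CPM. The phosphatase gene Cdc25c had a log2 fold change of 0.13. All 26 genes were lower in the number 3 libraries than in numbers 1 and 2 of the same groups, with a median log2 difference of -0.23, which is larger in size than the difference between genotypes. With the block, which called 16.7% of all genes higher, 9 of the 26 rose, among them Plk1, Aurka and Cenpf. With numbers 1 and 2 only, and when wild type replicate 2 was left out, 1 rose.

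**Figure D4:**
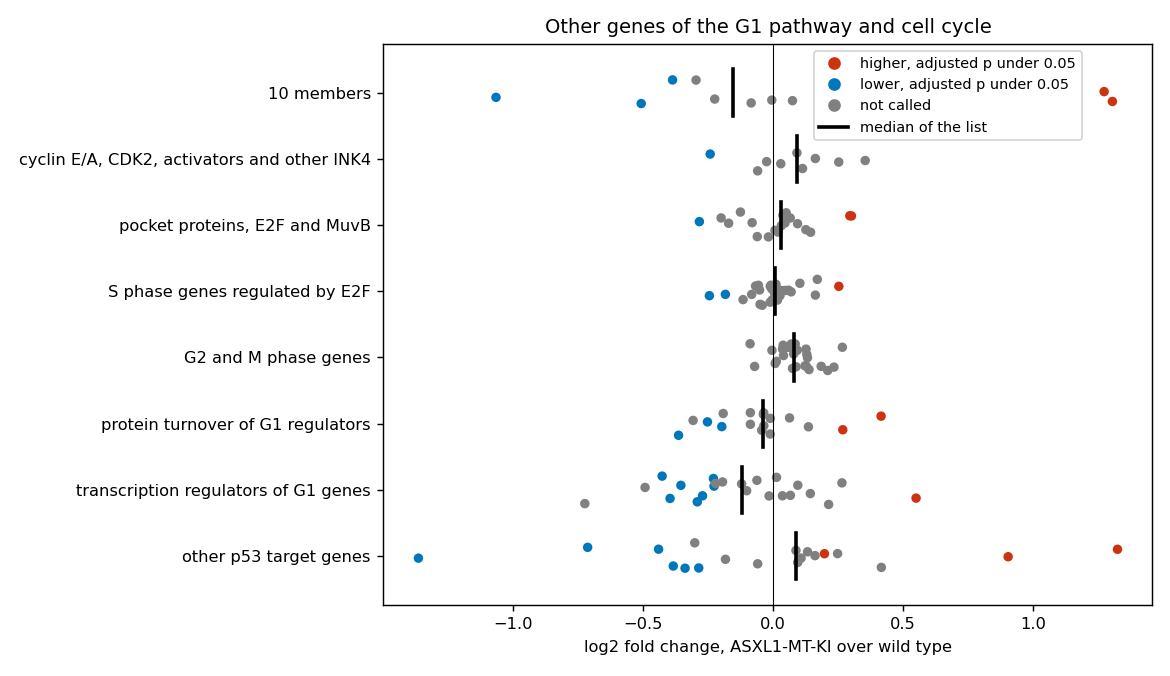
Log2 fold change of every tested gene in the 10 members and in 7 lists of the pathway, with black bars for the medians; red and blue points passed an adjusted p of 0.05. The members and the p53 targets reach past 1 in both directions, while all S phase and G2 and M phase genes lie between -0.24 and 0.27.

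Of 17 genes that control the turnover of G1 proteins, 2 rose and 3 fell (29.4% called, against 16% of all genes), with a median of -0.04. Skp2, the receptor of the ligase that destroys p27, rose by 0.42 on the log2 scale (20.7 ± 0.817 to 27.6 ± 3.72 CPM, adjusted p = 0.0182, edgeR), and Cul4a, a cullin scaffold chosen after its values were seen, from 134 ± 8.20 to 161 ± 14.2 CPM. Fbxw7, the receptor of the ligase for cyclin E, fell from 29.1 ± 1.19 to 22.6 ± 0.697 CPM (-0.36, adjusted p = 0.00575, edgeR). Gsk3b, a kinase that marks cyclin D1 for export and destruction, fell from 110.5 ± 0.953 to 92.8 ± 2.46 CPM, and Dyrk1a, another kinase of D cyclins, from 156 ± 6.96 to 136 ± 2.64 CPM. Leaving out any library but ASXL1-MT-KI replicate 3 removed 1 or both rises. The falls numbered 2 when wild type replicate 1 or any ASXL1-MT-KI library was left out, and with total counts.

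Among 26 transcription regulators known to act on G1 genes, 23 were tested, 1 rose and 7 fell (34.8% called, against 16% of all genes, of which 8.29% rose and 7.69% fell), with a median of -0.12. Runx1, a blood transcription factor, fell by 0.35 on the log2 scale (201 ± 9.37 to 157 ± 9.24 CPM, adjusted p = 0.00366, edgeR), and Foxo1, which activates Cdkn1b in resting cells, from 18.2 ± 0.436 to 13.6 ± 0.940 CPM. The NF-kB subunit genes Rela and Nfkb1 fell from 178 ± 10.1 to 136 ± 13.8 CPM and from 237 ± 7.57 to 202 ± 5.69 CPM. Foxo3, Zbtb17, which encodes the MYC partner MIZ1, and Stat3 were the other falls, and Gfi1, a repressor of Cdkn1a, was the rise, from 58.7 ± 7.70 to 85.9 ± 12.9 CPM (0.55, adjusted p = 0.0268, edgeR); these 4 were named after their values were seen. The falls numbered 4 when wild type replicate 1 was dropped and 3 when ASXL1-MT-KI replicate 2 was. The rises numbered 0 in the first case, and 2 when ASXL1-MT-KI replicate 2 or wild type replicate 3 was dropped. The falls numbered 5 with total counts (5.66% of all genes fell). They numbered 9 with the block (13.8%), in DESeq2 (8.63%) and with numbers 1 and 2 only (8.21%). The other 3 of the 26 did not pass the filter on low counts. With no filter, which takes them in, 2 genes of the list rose and 10 fell (1129 and 1082 over all genes). Gli2 had 0, 0 and 1 counts in wild type and 11, 6 and 19 in ASXL1-MT-KI, Lef1 had 10, 12 and 22 against 1, 3 and 6, and Gli3 had 8, 5 and 10 against 12, 8 and 4.

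Other p53 targets moved in both directions beside Cdkn1a. Of 19 genes, 3 rose and 6 fell (47.4% called, against 16% of all genes, of which 8.29% rose and 7.69% fell), and the median was 0.09. Plk2, a stress kinase gene, fell by 1.36 on the log2 scale (47.0 ± 8.29 to 18.2 ± 4.10 CPM, adjusted p = 0.00614, edgeR) and Bbc3, the gene of the pro-apoptotic protein PUMA, from 55.0 ± 6.37 to 33.6 ± 2.38 CPM (log2 change of -0.71, adjusted p = 0.0011, edgeR). Mdm2 (-0.34), Pmaip1 (-0.44), Sesn1 (-0.29) and Trp53inp1 (-0.38) also fell on the log2 scale. Zmat3, an RNA-binding protein gene, rose from 6.35 ± 0.644 to 11.9 ± 0.554 CPM (0.90, adjusted p = 0.000616, edgeR) and Phlda3, an inhibitor of AKT, from 2.17 ± 0.298 to 5.44 ± 0.632 CPM (1.33, adjusted p = 0.000763, edgeR), with Ccng1 (0.20) as the third rise. Ccng1 and the 4 falls given by their log2 change alone were named after their values were seen. Without wild type replicate 1 the falls numbered 3.

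By position, 6 members lie in pairs on chromosomes 6, 7 and 17 (Ccnd2 and Cdkn1b, Ccnd1 and Cdkn1c, Ccnd3 and Cdkn1a), but the genes of a pair are not neighbours. Of the 19 nearest tested neighbours found, 1 rose and 2 fell (15.8% called), a share close to the 16% of all genes. Tigar, a p53-regulated phosphatase gene next to Ccnd2, rose from 15.6 ± 1.06 to 19.0 ± 1.01 CPM (adjusted p = 0.0425, edgeR). Fam133b, next to Cdk6, fell from 73.8 ± 2.79 to 62.7 ± 1.70 CPM (adjusted p = 0.0146, edgeR), as did Faf1 above. The nearest tested neighbours of Ccnd1 and Cdkn1c did not pass. Oraov1 overlaps Ccnd1, while Tpcn2 on the other side lies 246.6 kb away. Tpcn2 held 15.8 ± 0.682 CPM in wild type against 18.3 ± 0.707 CPM (adjusted p = 0.0759, edgeR).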

How the data were processed

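Total RNA of LK cells was made into libraries from 200 ng with a kit that does not mark strand and read as 124 bp pairs, per the labels' protocols. HISAT2 2.0.4 and mm10 are listed, with no further detail, per the submitters' processing notes. How reads were counted, with which annotation, is not given in the sources used here. What the authors deposited is a single count table with symbols as rows, in whole numbers and not normalized. Columns were assigned to samples by genotype and number.

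The fit used edgeR 4.0.16 in R 4.3.3: filterByExpr (minimum count 10), TMM factors, glmQLFit with robust = TRUE and a design of genotype alone, and Benjamini-Hochberg adjusted p under 0.05 over 13548 genes. Standard errors are the log2 fold change divided by the square root of F. Level per kilobase is TMM-scaled CPM over the union of GENCODE M21 exons (GRCm38, the assembly of mm10). Alternatives were the replicate block, DESeq2 1.42.0, limma-voom (limma 3.58.1), DESeq2 size factors, total counts, no filter, a filter of CPM 1 in 3 libraries, an adjusted p under 0.10, each library left out, and numbers 1 and 2 only. Figures were drawn with matplotlib 3.10.9.

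Replicate numbers come from the sample titles. Deviations from the group mean correlated across genes between same-numbered libraries at 0.253, 0.162 and 0.391, all over 0.1, which meets the criterion for pairing used here; the fit behind the reported values has no block, and the blocked fit is given as an alternative. The value for wild type 2 with ASXL1-MT-KI 1 was 0.163. No 2 libraries of a group agreed within sampling noise. On simulated counts for this comparison with 13548 genes and 200 changed, the share of changed genes recovered was 71.2% at a 1.5-fold change, 87.3% at 2-fold and 98.4% at 4-fold, with 9 false among 179 calls. The simulated spread followed expression level alone, with no shift of the number 3 libraries and fewer changed genes than the 2165 called here. These shares therefore need not hold for the real libraries.

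The 10 genes, the lists and the tests were chosen with earlier results of these data known. Named are the 10 genes, Asxl1, the 4 genes of lowest p in each list, the nearest tested gene on each side of a member (rows under an older symbol placed through RefSeq synonyms), and for the 3 members with the lowest p the 3 genes most like them. The GC box and the p53 site were added to the motifs after the data were seen. Protein sequences were not used here. 1 gene of the stem cell marker list is not reported here, and the summary of that list leaves it out.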

Additional observations from a re-analysis of the deposited data

How the results depend on the processing

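Ccnd1, Cdkn1c, Cdkn2c and Cdkn2d kept their direction and their call under all 15 alternatives, with log2 fold changes of 1.23 to 1.36, 1.13 to 1.48, -0.43 to -0.33 and -0.57 to -0.45. Cdkn1a kept its direction (-1.24 to -0.94) and lost its call only with numbers 1 and 2 only (-1.10, adjusted p = 0.117, edgeR), where 4 libraries remain. Cdk4 and Cdkn1b passed under none. With the replicate number as a block, 5 of the 10 genes fell in place of 3: Ccnd2 (-0.30) and Cdk6 (-0.22) passed as well, and 4132 genes passed (2256 higher, 1876 lower). It lost no call among the 10. Ccnd2 also passed in DESeq2 (-0.30), with numbers 1 and 2 only (-0.30) and at an adjusted p under 0.10 (-0.30). On leaving out 1 library, the fallers among the 10 numbered 3 to 5, Ccnd2 ran from -0.40 to -0.21, Cdk6 from -0.32 to -0.11 and Ccnd3 from -0.069 to 0.065, and over all genes 534 to 1216 were higher and 587 to 1041 lower. Ccnd3, which was never called, turned positive with total counts (0.047), a scaling that moved the median of all genes to 0.05. Total counts called 1562 genes higher and 767 lower, so rises were a larger share of calls. With the longest transcript as length, Ccnd2 ranked 4 and Ccnd3 3 in both groups, Cdkn1b 8 in both, Cdkn2c 7 and Cdkn2d 5 in wild type, and Cdk6 7 in ASXL1-MT-KI; the order was otherwise the same. Cdkn1c rests on 49 to 157 counts a library, which limits its precision more than that of the other 9 genes.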
